A study of Mus musculus with 6 samples.

Results

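Adenosine and purine signalling was examined through 8 genes of the deposited FPKM table, which were taken by their gene symbols from its 54532 rows. They were the adenosine receptors Adora1, Adora2a and Adora2b, the ectonucleotidases Entpd2 and Nt5e, the adenosine transporter Slc29a1, the adenosine kinase Adk and the ATP receptor P2rx7. The libraries were made from hippocampal tissue of 3 WT mice and 3 TG mice, each named by its group and the number in its label (WT1, TG1 and so on). The TG mice are knock-in animals whose Slc1a2 gene holds the G82R and L85P variants; this gene encodes the astrocytic glutamate transporter GLT-1. The methods describe that these changes were placed in an exon with CRISPR/Cas9 on the C57BL/6N background, and that WT littermates served as controls. The age, the sex and the number of altered alleles of the sequenced animals are not given in the sources used here. The comparison asked how the purinergic transcripts of the hippocampus differ between WT and TG mice.

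ATP leaves neurons and glia as a transmitter, and it acts on ATP-gated channels (the P2X receptors) and on G protein-coupled receptors for nucleotides (the P2Y receptors). Ectonucleotidases on the cell surface strip its phosphates stepwise until adenosine is formed. Adenosine then acts on its own G protein-coupled receptors, of which Adora1 lowers transmitter release and neuronal firing in the hippocampus, and it is taken up through equilibrative transporters and turned back into AMP by Adk. Adenosine acting on Adora1 is best known in this tissue as a brake on seizures.

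None of the 8 genes passed the test of TG against WT mice over all genes. Adora1, Adora2b and P2rx7 had higher means in TG mice, and Adora2a, Adk, Nt5e, Entpd2 and Slc29a1 had lower means. No member passed an adjusted p of 0.05 (limma on log2(FPKM + 0.1), Benjamini-Hochberg over 20952 genes), where 0.00955% of the genes tested passed, and none had an unadjusted p under 0.05, where 5.91% did. The median log2 difference, TG minus WT, was -0.10 over the 8 members and -0.0020 over all genes tested. The median size of the difference without its sign was 0.147 over the members and 0.148 over all genes tested. All 8 members passed the filter of a mean FPKM of at least 0.1.

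TG1 and TG2 stood apart from the other libraries by transcripts of the choroid plexus, the tissue that makes cerebrospinal fluid and borders the hippocampus. The 20 genes of its marker list, led by Ttr, summed to between 68.4 and 99.3 FPKM in WT libraries and to 1263 FPKM in TG1, 3966 FPKM in TG2 and 78.7 FPKM in TG3, and 20 of the 20 had higher means in TG mice. Leaving out TG1 and TG2 keeps TG3 as the only TG library, so only the size of a difference is given. The log2 differences were then 0.18 for Adora1, -0.12 for Adora2a, 0.35 for Adora2b, -0.14 for Adk, 0.02 for Nt5e, -0.17 for Entpd2, -0.09 for Slc29a1 and 0.08 for P2rx7. All but that of Nt5e had the direction seen with all 6 libraries. TG3 is part of both comparisons, so this is not an independent check.

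FPKM are reads scaled to the length of the gene and the size of the library, so levels of different genes are compared here per length. Adora1 was the most abundant member by far, with a mean over the 6 libraries of 42.1 FPKM, higher than 94.7% of the genes tested. The kinase Adk followed with 5.85 FPKM, then Entpd2 with 3.62, Slc29a1 with 3.15, Adora2b with 2.11, P2rx7 with 1.94, Adora2a with 0.792 and Nt5e with 0.490 FPKM. In every library Adora1 lay above Adk, Adk above Entpd2, P2rx7 above Adora2a and Adora2a above Nt5e, and the ranges of these neighbours did not overlap. The ranges of Entpd2 and Slc29a1, of Slc29a1 and Adora2b, and of Adora2b and P2rx7 overlapped, so their order is not set by these libraries. The order also rests on the gene length of the table, which is the union of all annotated exons. With the length of the longest transcript, a calculation added after the data were seen, Slc29a1 had 5.70 FPKM and moved above Entpd2 with 3.98 FPKM, P2rx7 moved above Adora2b, and Nt5e with 1.06 FPKM moved above Adora2a with 0.934 FPKM. The plot of levels shows each library.

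**Figure D1:**
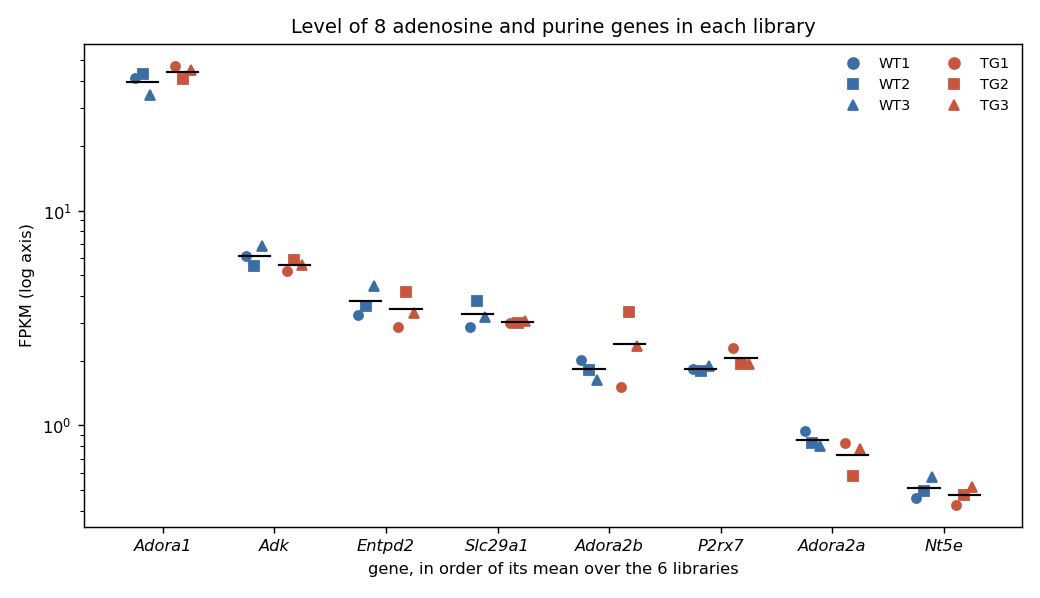
Level of the 8 genes in each library, in FPKM on a log axis, ordered by the mean over the 6 libraries. Blue marks are WT and red marks TG libraries, the shape gives the replicate number and the bar the mean of a group. Adora1 stands near 42.1 FPKM and Nt5e near 0.490 FPKM, and the WT and TG marks of every gene except P2rx7 overlap.

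Adora1 (ENSMUSG00000042429, GRCm38 chromosome 1, 134199223 to 134235431, minus strand) encodes the inhibitory adenosine receptor of hippocampal neurons. WT1, WT2 and WT3 gave 41.6, 43.2 and 34.5 FPKM, compared with 47.1, 40.9 and 45.0 FPKM for TG1, TG2 and TG3. WT3 was the lowest library and TG1 the highest, and TG2 lay below WT1 and WT2, so the groups overlapped. The means were 39.8 ± 4.65 FPKM in WT and 44.3 ± 3.15 FPKM in TG mice (SD, n = 3 in each group), a log2 difference of 0.16 (SE 0.10, 95% confidence interval -0.08 to 0.40, adjusted p = 0.789). With 3735 to 4697 reads a library, counting error was 1.53% and the spread between animals (the SD as a percentage of the mean), 11.7% in WT and 7.10% in TG, was far larger. Without WT3 the log2 difference was 0.06. The interval spans a TG level between 0.945 and 1.32 times that of WT mice. Of its exon bases, 1162 are shared with Mybph on the opposite strand, which had 0.161 FPKM. In bulk tissue, fewer cells of a type and less RNA per cell cannot be told apart, and this holds for each gene described here.

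Adora2a (ENSMUSG00000020178, chromosome 10, 75316877 to 75334784, plus strand) encodes a receptor that raises cyclic AMP and is best known from the striatum. It reached 0.936, 0.829 and 0.802 FPKM across the WT animals, as against 0.826, 0.583 and 0.778 FPKM across the TG animals. TG2 was the lowest library, and TG1 lay inside the WT range. The means were 0.856 ± 0.0708 FPKM in WT and 0.729 ± 0.128 FPKM in TG mice, and the log2 difference was -0.22 (SE 0.20, interval -0.68 to 0.25, adjusted p = 0.791). Only 32 to 53 reads a library stood behind these values, so counting error alone was 15.3%, close to the spread of 17.6% between the TG animals. Markers of the striatum, a neighbouring region rich in Adora2a, summed to between 29.8 and 32.2 FPKM in WT and between 32.0 and 40.5 FPKM in TG libraries, with the highest sum in TG2. The median deviation of the same 8 markers from their WT means was 0.24, -0.07 and -0.06 on the log2 scale in the WT libraries, where Adora2a was also highest in WT1, and 0.16, -0.07 and 0.01 in TG1, TG2 and TG3. The sum and the median thus place TG2 differently, and their part in the Adora2a values was not tested. Leaving out TG2 took the log2 difference of Adora2a to -0.08.

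Adora2b (ENSMUSG00000018500, chromosome 11, 62248984 to 62266453, plus strand) encodes the receptor with the lowest affinity for adenosine, which also raises cyclic AMP. It varied most between libraries. The WT values were 2.02, 1.81 and 1.62 FPKM (WT1, WT2, WT3), while the TG values were 1.51, 3.36 and 2.34 FPKM (TG1, TG2, TG3). TG2 and TG3 lay above all WT libraries, whereas TG1 lay below all of them. The mean was 1.82 ± 0.201 FPKM in WT and 2.40 ± 0.926 FPKM in TG mice, and the log2 difference was 0.32 (SE 0.27, interval -0.31 to 0.95, adjusted p = 0.789). The spread of 38.6% between the TG animals exceeded both the 11.0% between the WT animals and the counting error of 12.1% (44 to 111 reads a library). TG1 and TG2 each set much of the size of this value. Without TG1 the log2 difference was 0.60 (unadjusted p = 0.0286, adjusted p = 0.898, adjusted range 0.730 to 1.00 over its 17 alternatives), without TG2 it was 0.05, and with a choroid plexus score (the mean of its 20 markers, centred on the log2 scale) as covariate it was 0.11. A list of 13 microglial markers moved in the same direction in the TG libraries. The median deviation of these markers from the WT mean was -0.08 in TG1, 0.25 in TG2 and 0.23 in TG3 on the log2 scale, against -0.25, 0.85 and 0.35 for Adora2b. In WT1, WT2 and WT3 it was 0.06, -0.07 and 0.02, against 0.15, 0.0003 and -0.15 for Adora2b, so the WT libraries did not share the pattern. Of the marker lists, this one had the highest r with Adora2b (0.88). The part of microglia in the Adora2b difference was not tested.

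Within the adenosine receptor family, Adora1 made up at least 90.9% of the summed FPKM of Adora1, Adora2a, Adora2b and Adora3 in each library. Adora2b made up 4.52%, 3.93% and 4.38% of the sum across the WT animals, as against 3.04%, 7.46% and 4.85% across the TG animals. The share of Adora2a was 2.09%, 1.80% and 2.17% in WT and 1.66%, 1.30% and 1.61% in TG mice, so the shares did not overlap. They rest on 32 to 53 reads of Adora2a a library. Because Adora1 made up most of the sum, this nearly restates the ratio of Adora1 to Adora2a described below. For ratios of single genes, a different measure from shares, the groups did not overlap in 12.1% of all pairs tested. Adora3, the remaining receptor of the family, had 0.129 to 0.232 FPKM from 9 to 14 reads a library, and its FPKM overlapped between the groups. Its share was 0.454%, 0.504% and 0.348% in WT and 0.307%, 0.299% and 0.339% in TG mice, so the shares of Adora3 did not overlap either, on these few reads.

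The ectonucleotidase Entpd2 (ENSMUSG00000015085, chromosome 2, 25395874 to 25401321, plus strand) turns ATP into ADP. WT1, WT2 and WT3 gave 3.28, 3.61 and 4.44 FPKM, compared with 2.88, 4.19 and 3.33 FPKM for TG1, TG2 and TG3. TG1 was the lowest library and WT3 the highest, and the groups overlapped. The mean was 3.78 FPKM in WT (spread 15.9%) and 3.47 FPKM in TG mice (spread 19.2%), and the log2 difference was -0.12 (SE 0.17, interval -0.52 to 0.27, adjusted p = 0.859) from 97 to 177 reads a library. It was -0.0047 without WT3 and -0.0031 without TG1, and -0.22 without WT1 and -0.27 without TG2, so single libraries set its size. The value of Entpd2 is uncertain in level, because its exons share 612 bases with Npdc1 on the same strand. Npdc1 had a mean of 67.1 FPKM, and how the counting assigned reads of the shared bases is not stated.

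Nt5e (ENSMUSG00000032420, chromosome 9, 88327197 to 88372092, plus strand) encodes CD73, which makes adenosine from AMP outside the cell. It was the least abundant member, at 0.459, 0.497 and 0.571 FPKM across the WT animals and 0.426, 0.473 and 0.515 FPKM across the TG animals. The groups overlapped over most of their range. The means were 0.509 ± 0.0571 FPKM in WT and 0.471 ± 0.0445 FPKM in TG mice, and the log2 difference was -0.09 (SE 0.22, interval -0.60 to 0.42, adjusted p = 0.928). It was -0.02 without WT3, -0.03 without TG1, and -0.15 without WT1. The spread of 11.2% in WT and 9.43% in TG mice was no larger than the counting error of 11.6% from 58 to 92 reads a library.

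Slc29a1 (ENSMUSG00000023942, chromosome 17, 45585200 to 45599606, minus strand) encodes ENT1, the equilibrative transporter through which adenosine crosses the membrane. It reached 2.86, 3.80 and 3.20 FPKM across the WT animals, as against 2.98, 3.01 and 3.07 FPKM across the TG animals. All TG libraries lay within the WT range. The TG libraries differed from each other by less than counting error, 1.48% against 6.73%. The mean was 3.29 ± 0.476 FPKM in WT and 3.02 ± 0.0446 FPKM in TG mice, and the log2 difference was -0.11 (SE 0.12, interval -0.40 to 0.18, adjusted p = 0.829). It was -0.0035 without WT2 and -0.20 without WT1. Of its exon bases, 275 are shared with the gene Gm17080 on the opposite strand, which had 0.209 FPKM.

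Adk (ENSMUSG00000039197, chromosome 14, 21052574 to 21448569, plus strand) encodes the enzyme that clears adenosine inside the cell and is found mostly in astrocytes of the adult brain. The WT values were 6.12, 5.50 and 6.83 FPKM (WT1, WT2, WT3), while the TG values were 5.20, 5.88 and 5.57 FPKM (TG1, TG2, TG3). TG1 was the lowest library and WT3 the highest, and TG2 and TG3 lay above WT2. The mean was 6.15 ± 0.663 FPKM in WT and 5.55 ± 0.340 FPKM in TG mice, and the log2 difference was -0.14 (SE 0.10, interval -0.39 to 0.10, adjusted p = 0.789). It was -0.07 without WT3 and -0.22 without WT2. The interval spans a TG level from 0.766 to 1.07 times that of WT mice, and the 702 to 1090 reads a library gave a counting error of 3.37%. A list of 12 astrocyte markers, led by Aldoc, summed to between 597 and 680.4 FPKM in WT and between 596 and 627 FPKM in TG libraries. However, 8 of the 12 had higher means in TG mice on the log2 scale. The median deviation of the markers from their WT means was 0.02, -0.05 and 0.05 in WT1, WT2 and WT3. In TG1, TG2 and TG3 it was -0.05, 0.0003 and 0.03. The part of astrocytes in the Adk difference was not tested.

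P2rx7 (ENSMUSG00000029468, chromosome 5, 122643911 to 122691432, plus strand) encodes an ATP-gated ion channel that responds to high ATP and is known for its role in inflammasome activation in microglia. WT1, WT2 and WT3 gave 1.82, 1.78 and 1.90 FPKM, compared with 2.30, 1.92 and 1.94 FPKM for TG1, TG2 and TG3. The TG libraries were all higher than the highest WT library, but TG2 exceeded WT3 by 0.0281 FPKM only. Of the 8 members, only P2rx7 had groups that did not overlap, and this held for 12.1% of the genes tested, 6.35% with the TG and 5.71% with the WT libraries on top. The mean was 1.83 ± 0.0576 FPKM in WT and 2.05 ± 0.211 FPKM in TG mice, with a log2 difference of 0.15 (SE 0.12, interval -0.14 to 0.44, adjusted p = 0.789). The exact two-sided permutation test gave p = 0.1, which is the smallest value that 3 against 3 libraries allow. TG1 carried much of the difference, which was 0.07 on the log2 scale without it. In the same library, 10 markers of oligodendrocytes, cells in which P2rx7 is also known to be expressed, were lowest. Their median deviation from the WT mean was -0.65 in TG1, -0.15 in TG2 and -0.06 in TG3. P2rx7 thus ran against them, with r = -0.95 over the 6 libraries. Its r was -0.21 with the microglial and 0.79 with the neuronal marker list. The part of these cells in the P2rx7 difference was not tested.

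**Figure D2:**
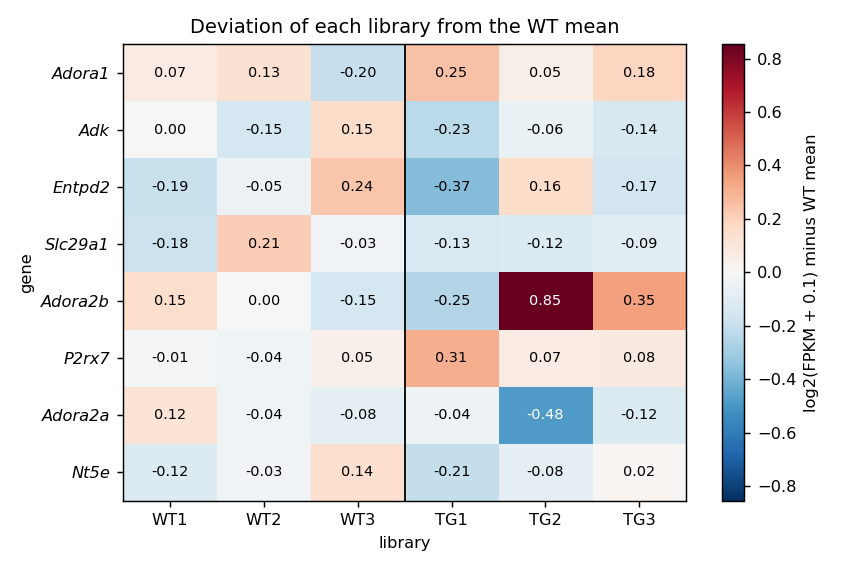
Deviation of each library from the WT mean of a gene, in log2(FPKM + 0.1), with the value in each cell; red is above and blue below the WT mean. P2rx7 is the only gene whose 3 TG cells all exceed its 3 WT cells, and Adora2b holds the largest value, 0.85 in TG2, beside -0.25 in TG1.

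Ratios of members within a library do not depend on how that library was scaled. Of the 28 ratios of pairs of members, 3 had groups that did not overlap, beside 12.1% of all pairs of genes tested. For Adora1 over Adora2a, WT1, WT2 and WT3 gave 44.4, 52.2 and 43.0, compared with 57.1, 70.2 and 57.8 for TG1, TG2 and TG3, with means of 46.5 ± 4.94 and 61.7 ± 7.37. The ratio of P2rx7 to Adora2a was 1.95, 2.15 and 2.36 in WT and 2.78, 3.30 and 2.49 in TG libraries. The ratio of Adk to P2rx7 was 3.36, 3.09 and 3.60 in WT and 2.27, 3.06 and 2.87 in TG libraries, so here the TG libraries lay lower. These ratios are a description and share their genes, and Adora2a enters them with at most 53 reads a library.

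Adora1 and Adk deviated in opposite directions from library to library. WT3 had the lowest Adora1 and the highest Adk of the 6 libraries, and TG1 had the highest Adora1 and the lowest Adk. Pearson's r of their log2 values over the 6 libraries was -0.96 (exact permutation p = 0.00556, 0.156 after Benjamini-Hochberg adjustment over the 28 pairs) and Spearman's rho was -0.89 (exact permutation p = 0.0333, adjusted 0.719). Within the groups, after the group means were taken out, r was -0.95. Without WT3 and TG1, the libraries farthest from the median of Adora1, r was -0.77 over 4 libraries. No pair of members passed the adjustment. For comparison, 230 of 13324 genes with a mean of at least 1 FPKM (1.73%) had an r of -0.95 or less with Adora1 and 373 genes (2.80%) had an r of 0.95 or more. Adora1 and Entpd2 were opposed as well, with r = -0.86 (exact permutation p = 0.0236, adjusted 0.331) and rho = -0.83 (exact permutation p = 0.0583, adjusted 0.719), and with r = -0.56 without WT3 and TG1 and -0.88 within the groups. The plot of gene pairs shows WT3 and TG1 at its corners. A list of 9 neuronal markers, led by Camk2a, summed to 1370.5 FPKM in WT3, the lowest library, and to 1583 FPKM in TG1, the highest. The median deviation of these markers from their WT means was also highest in TG1 (0.17), but lowest in TG2 (-0.071), beside -0.065 in WT3. Not every marker followed the sum, since Neurod6 was highest in WT3 (91.0 FPKM) and Prox1 lowest in TG1 (9.81 FPKM). Both were named after their values were seen, and the part of neurons in these patterns was not tested.

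**Figure D3:**
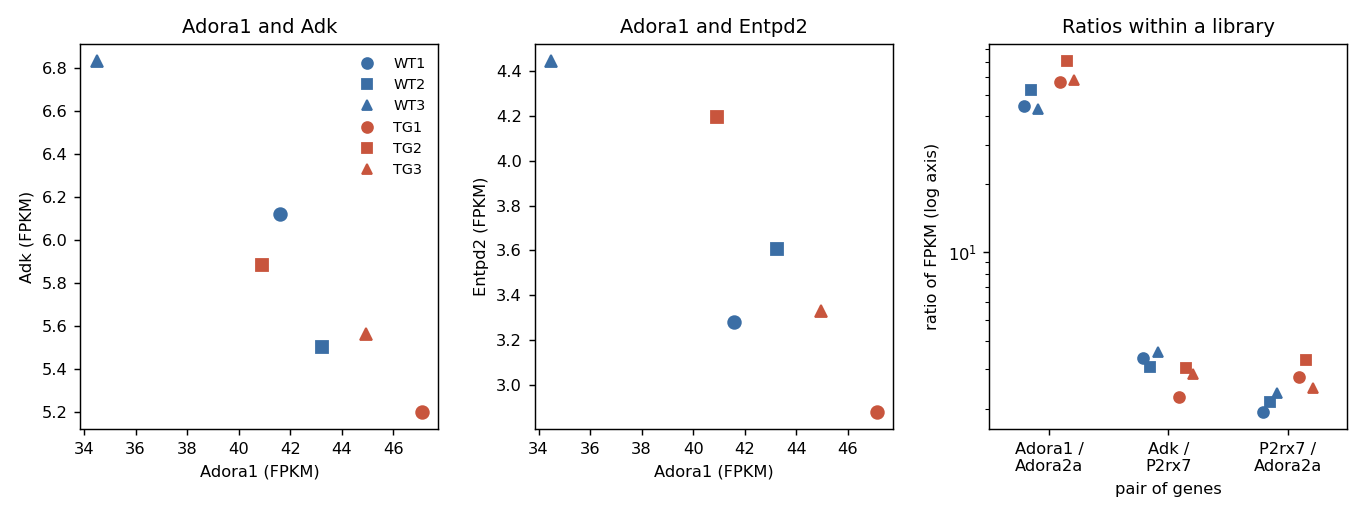
Left and centre, FPKM of Adk and of Entpd2 against FPKM of Adora1, 1 mark a library (blue WT, red TG); right, the 3 ratios of members whose groups do not overlap, on a log axis. WT3 (34.5 FPKM of Adora1) and TG1 (47.1 FPKM) lie at opposite ends of both left panels, with 6.83 and 5.20 FPKM of Adk.

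The genes whose log2 values over the 6 libraries were most like those of each member were ranked by Pearson's r among genes with a mean of at least 1 FPKM, as a description. For Adora1 they were Adarb1, Adgrl1 and Def8, and for Adk they were Tmem70, Dynlt3 and Ppp4c. Hsd17b11, Gm8566 and Tspan6 were most like Entpd2, and A930005H10Rik and Pfdn4 were among those most like Nt5e. The list was Gm2011, Fnip1 and Plin4 for Slc29a1, Efna3, Nbn and Shprh for P2rx7, Cd300c2, Fbxo8 and Rflnb for Adora2b, and Edn1, Vps53 and Zranb3 for Adora2a. All these r lay between 0.971 and 0.999 in value, and the number of genes at 0.95 or more ranged from 8 for Adora2a to 373 for Adora1.

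A wider list of 51 purinergic genes, the 8 members included, was described in the same way. All were found in the table and 40 passed the filter on low values. Of these 40 genes, 22 had higher and 18 lower means on the log2 scale in TG mice, and the median log2 difference was 0.04. None passed an adjusted p of 0.05, and 1 gene, Alpl, had an unadjusted p under 0.05 (higher in TG mice), beside 3.13% of all genes tested in that direction. The groups did not overlap in 4 of the 40 genes, beside 12.1% of all genes. They were Alpl, P2ry2 and P2rx7, higher in TG, and P2ry14, lower in TG mice, the last with 0.225, 0.230 and 0.217 FPKM in WT and 0.154, 0.156 and 0.205 FPKM in TG libraries. P2ry14 was named after its values were seen. The plot of differences shows the 40 genes by role.

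**Figure D4:**
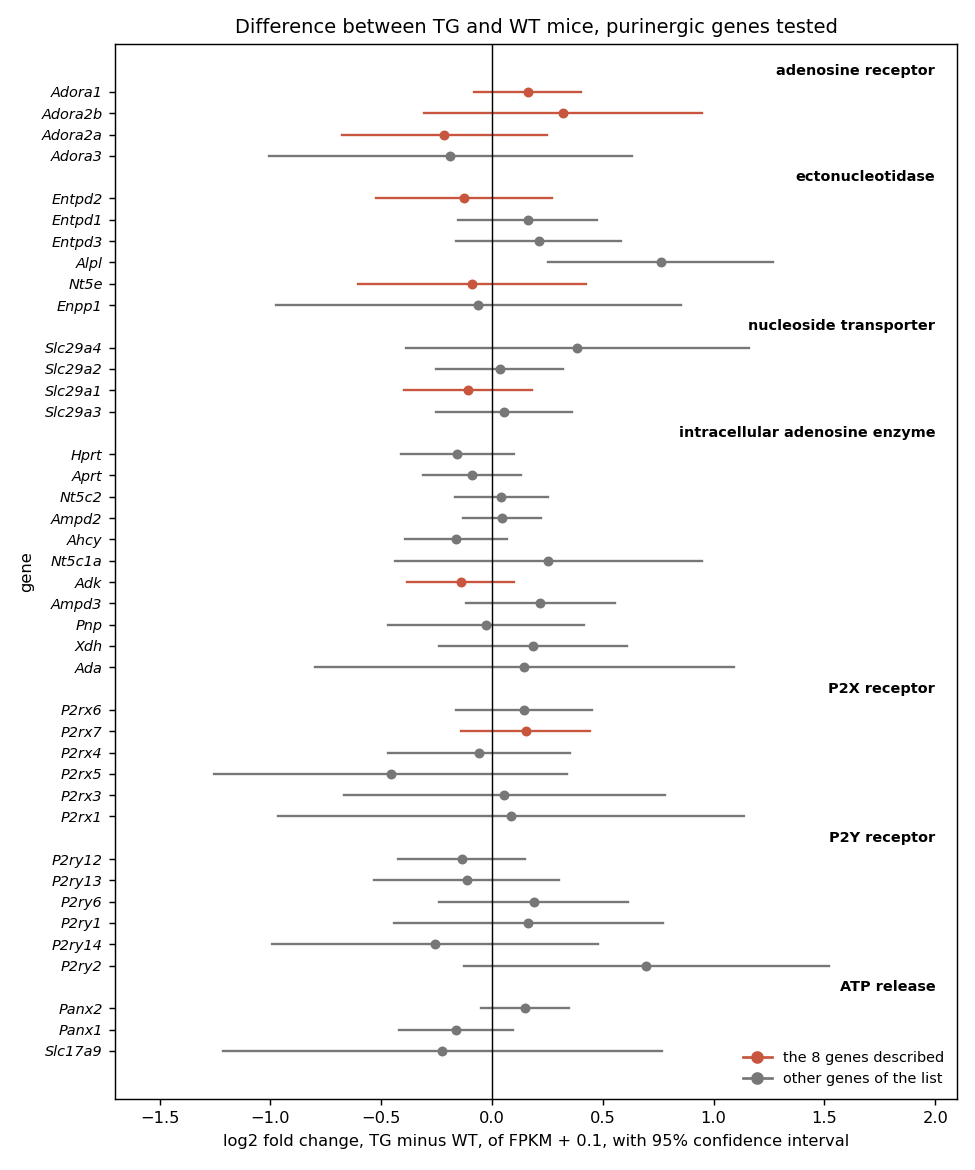
Difference between TG and WT mice for the 40 purinergic genes tested, as the log2 fold change of FPKM + 0.1 with its 95% confidence interval, grouped by role; the 8 members are red. The interval of Alpl (0.25 to 1.27) is the only one that lies wholly to one side of 0.

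Alpl (ENSMUSG00000028766, chromosome 4, 137741733 to 137796384, minus strand) encodes tissue-nonspecific alkaline phosphatase, an ectoenzyme that can take ATP down to adenosine. It reached 1.26, 1.18 and 1.18 FPKM across the WT animals, as against 2.16, 2.84 and 1.54 FPKM across the TG animals. The mean was 1.21 ± 0.0464 FPKM in WT and 2.18 ± 0.649 FPKM in TG mice, with a log2 difference of 0.76 (SE 0.22, interval 0.25 to 1.27, unadjusted p = 0.00909, adjusted p = 0.786). The libraries with the highest Alpl, TG2 and then TG1, were those with the highest sums of choroid plexus markers. TG3 had a sum of 78.7 FPKM, inside the WT range of 68.4 to 99.3 FPKM, and its Alpl of 1.54 FPKM still lay above all WT libraries. With the choroid plexus score as covariate the log2 difference in Alpl was 0.28 (unadjusted p = 0.173). Without TG1 and TG2, which leaves TG3 as the only TG library, it was 0.33. The high sums occurred in TG libraries only, and the part of choroid plexus content in the Alpl difference was not tested.

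Among the other nucleoside transporters, Slc29a4, which encodes PMAT, a carrier of monoamines and adenosine, was the most abundant and had the smallest p. The WT values were 9.20, 11.4 and 8.85 FPKM (WT1, WT2, WT3), while the TG values were 12.8, 21.2 and 7.62 FPKM (TG1, TG2, TG3), so TG2 was far above and TG3 below every WT library. The log2 difference was 0.38 (SE 0.33, adjusted p = 0.789), and it turned to -0.42 with the choroid plexus score as a covariate and to -0.35 without TG1 and TG2. Of the 4 transporters tested, 3 had higher and 1 had lower means in TG mice, with a median of 0.04.

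Of the 11 intracellular enzymes tested, 6 had higher and 5 lower means on the log2 scale, with a median log2 difference of 0.04. Hprt, a purine salvage enzyme, was the most abundant with 93.9, 87.4 and 114 FPKM in WT and 83.6, 92.6 and 87.0 FPKM in TG libraries, and its log2 difference was -0.16 (adjusted p = 0.789). Ahcy, which releases adenosine from S-adenosylhomocysteine, had the smallest p of the group, with 11.9, 11.1 and 10.2 FPKM in WT and 10.9, 9.09 and 9.63 FPKM in TG libraries and a difference of -0.16 (unadjusted p = 0.139, adjusted p = 0.789). Among the 6 ectonucleotidases tested, Entpd2 was the most abundant, 3 had higher means and 3 had lower means, and the median was 0.05.

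Of the 6 P2X receptor genes tested, 4 had higher and 2 lower means, with a median of 0.07. P2rx6, the most abundant of them, had 2.06, 1.91 and 1.68 FPKM in WT and 2.12, 2.23 and 1.91 FPKM in TG libraries, a log2 difference of 0.14 (SE 0.13). P2rx5, with the smallest p of this group, had 1.33, 1.55 and 1.03 FPKM in WT and 0.923, 1.49 and 0.532 FPKM in TG libraries, a log2 difference of -0.46 (SE 0.34, unadjusted p = 0.219, adjusted p = 0.789). Among the 6 P2Y receptor genes tested, the median was 0.02. P2ry12, the ADP receptor of microglial processes, was the most abundant, with 11.9 ± 1.11 FPKM in WT and 10.8 ± 1.51 FPKM in TG mice (log2 difference -0.14, SE 0.12). P2ry2, a receptor for ATP and UTP, had 0.152, 0.0946 and 0.0816 FPKM in WT and 0.257, 0.199 and 0.254 FPKM in TG libraries from 6 to 18 reads, a log2 difference of 0.70 (SE 0.35, unadjusted p = 0.0860, adjusted p = 0.789).

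Of the 3 genes of ATP release tested, Panx2, which encodes a pannexin channel subunit, was the most abundant, with 37.2, 37.6 and 38.5 FPKM in WT and 46.4, 37.9 and 41.7 FPKM in TG libraries (log2 difference 0.15, SE 0.08, unadjusted p = 0.121, adjusted p = 0.789), and the median of the group was -0.16. The 11 genes of the list under the filter held at most 19 reads in a library, the most in Slc28a3, a concentrative nucleoside transporter. Entpd8, Ampd1 and Calhm1 were listed at 0 in every library.

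The reads on genes ranged from 16081281 to 18751057 a library, so that 3 reads on a gene of 1 kb are 0.160 to 0.190 FPKM. Slc1a2 itself had 177 to 202 FPKM in WT and 207 to 222 FPKM in TG libraries (log2 difference 0.16, adjusted p = 0.789), which does not bear on the labels, since the knock-in alters bases that FPKM do not show. These are levels of RNA, whereas the study reported by Western blot that GLT-1 protein was almost lost in TG hippocampus. No marker of neurons, astrocytes, oligodendrocytes, their precursors, microglia or endothelium was at 0 in any library, but these cells occur throughout the brain and most of the markers do not bear on the hippocampal label. Prox1, which marks granule cells of the dentate gyrus, had 9.81 to 14.4 FPKM over the 6 libraries, and was named after its values were seen. Oligodendrocyte markers, led by Mbp, had higher means in TG mice in 0 of 10 genes and an unadjusted p under 0.05 in 1, and microglial markers, led by C1qa, in 9 of 13 genes with 2 such p. Of all 20952 genes tested, 10398 had higher log2 means in TG mice and 5.91% had an unadjusted p under 0.05. The marker counts were not tested against these. The summed level was 671 to 840.3 FPKM in WT and 522 to 773 FPKM in TG libraries for oligodendrocytes, and 203 to 228 FPKM and 189 to 254 FPKM for microglia. The 10 endothelial markers (Ly6c1 first) summed to 104 to 124 FPKM in WT and 114 to 118 FPKM in TG libraries, the 8 meningeal markers (Dcn first) to 16.1 to 33.8 and 21.1 to 27.5 FPKM, the 7 ependymal markers (Foxj1 first) to 11.6 to 17.2 and 10.6 to 20.2 FPKM, the 5 blood markers (Hbb-bs first) to 143 to 202 and 159 to 165 FPKM, and the 5 precursor markers (C1ql1 first) to 19.5 to 20.4 FPKM in both groups.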

How the data were processed

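RNA-seq of hippocampal tissue of 3 WT and 3 TG mice was used. The authors counted reads per gene with HTSeq and deposited FPKM, computed from the read count and the gene length, with 1 column per library. The labels name the builds GRCm38 and mm10; the aligner and the strand setting are not given in the sources used here, so overlapping and antisense genes are uncertain. Coordinates are those of the table. The methods name Trizol and NEBNext Ultra, the labels RNeasy and a SMARTer kit.

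Multiplied by gene length, 100% of the values fell on whole multiples of what 1 read is worth (tolerance 0.05 reads), which gave the reads per gene. Counting errors come from these reads and cover counting only, because without molecular identifiers a read need not be a separate molecule. Of 54532 genes, 30589 were above 0 and 20952 with a mean of at least 0.1 FPKM were tested. The test was limma 3.58.1 (R 4.3.3) with lmFit and eBayes (trend) on log2(FPKM + 0.1), where the pseudocount of 0.1 understates changes of low genes, with Benjamini-Hochberg adjustment over all genes and a threshold of 0.05. The labels number the mice and say no more on the replicates. The main fit did not treat libraries with a shared replicate number as paired, because the labels give no pairing. Alternatives changed the pseudocount, filter, scaling, variance model, libraries and covariates, and limma-voom was run on the recovered reads. The fit was tested on simulated data. Exact permutation tests and tables were made in Python 3.11.15 with scipy 1.17.1, numpy 2.4.6 and pandas 2.3.3, and plots with matplotlib 3.10.9.

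The members, the wider list and the marker lists were chosen with earlier results of these data known. Named were the 8 members, Slc1a2, each purinergic gene with an unadjusted p under 0.05, in each role the most abundant gene and the one with the smallest p, the 3 genes most like each member, and the most abundant gene of each marker list; a gene this rule names is not reported here.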

Additional observations from a re-analysis of the deposited data

How the results depend on the processing

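Over the alternatives, 132 of 134 log2 differences of the members kept their direction and 1 had an unadjusted p under 0.05 (Adora2b without TG1), but with a library left out the size fell to as little as -0.0031 for Entpd2, -0.0035 for Slc29a1 and -0.018 for Nt5e; Adora2a and Nt5e could not be tested with a mean of at least 1 FPKM. Nt5e turned from -0.09 to 0.0040 with the choroid plexus score as a covariate and to 0.018 without TG1 and TG2, where the lone TG library is assumed to vary like the WT libraries, and Slc29a4 turned from 0.38 to -0.42 and -0.35. The members with an unadjusted p under 0.05 numbered 0, and 0 to 1 when a library was left out. In the wider list this number was 1 (Alpl). It was 2 with quantile normalization (Alpl and Panx2), 2 without the variance trend and 2 with voom on recovered reads (Alpl and P2ry2), and 1 to 3 when a library was left out. The 3 were Adora2b, Ahcy and Alpl without TG1, and Alpl, P2rx5 and Panx2 without TG2. The number was 2 without WT1 (Alpl and P2ry2) and without TG3 (Alpl and Slc29a4). Beside these, 878 to 1375 of all 20952 genes had an unadjusted p under 0.05 when a library was left out, 933 without TG1 and 1010 without TG2. That count was 1297 with quantile normalization, 1182 without the variance trend and 1253 with voom. The list counts were not tested against these. The median of the list was 0.04, and lay between -0.031 and 0.099 when a library was left out; it was below 0 without WT3 and without TG3 (-0.030). Over all genes, 2 passed the adjusted threshold. This was 0 with a pseudocount of 0.01 or 1, with no filter, with voom and with the choroid plexus score. It was 1 with a mean of at least 1 FPKM, 9 without the variance trend, and 0 to 6 when a library was left out (6 without TG1). The count at an unadjusted p under 0.05, 1238 of all genes, was 688 with the choroid plexus score. The causes were not tested. With the replicate number as a block, 0 genes passed the adjusted threshold, 1244 an unadjusted p under 0.05, and the members and the list kept 0 and 1. Deviations of same-numbered libraries correlated at 0.0125, 0.0434 and 0.0031, and those of differently numbered libraries at -0.0274 to 0.0159. Values this small cannot settle whether same-numbered mice were paired, and the labels do not say. Upper-quartile scaling and quantile normalization moved the median of all genes by -0.0063 and -0.0056 on the log2 scale. Depth limits Adora2a, Adora2b, Nt5e, Entpd2, Alpl, P2rx5, P2ry2, P2ry14 and Adora3 among the genes described, whose counts fell under 100 reads in a library.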

Other observations

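P2rx5, an ATP-gated channel subunit, had the lowest log2 difference of the 40 purinergic genes tested, -0.46 (unadjusted p = 0.219, adjusted p = 0.789). TG2, with the highest choroid plexus sum, had 1.49 FPKM of P2rx5, within the WT range of 1.03 to 1.55 FPKM, whereas TG1 had 0.923 and TG3 had 0.532 FPKM, both below it. With the choroid plexus score as a covariate the log2 difference was -1.21 (unadjusted p = 0.00396, adjusted p = 1.00), and without TG1 and TG2 it was -1.13. The latter fit leaves TG3, the library lowest in P2rx5, as the only TG library, so only its size is given. The score was 1.56 in TG1, 3.02 in TG2 and negative in every other library. The covariate fit thus also rests largely on TG3 and is not a separate check. Whether choroid plexus content plays a part was not tested. The P2rx5 values rest on 23 to 64 reads a library, and P2rx5 was followed up after these values were seen.

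The libraries at the ends of their groups were tallied over the 8 members, as a description. Every gene has a highest and a lowest library among the 3 of a group, so high tallies arise by construction. WT3 was the highest WT library for 4 and the lowest for 3 of the 8 members, and TG1 was the highest TG library for 3 and the lowest for 5. These counts were 2 and 3 for WT1, 2 and 2 for WT2, 3 and 3 for TG2, and 2 and 0 for TG3. The tallies are small, members such as Adora1 and Adk did not vary independently, and no tally over all genes was made. These counts therefore do not set WT3 and TG1 apart from the other libraries.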
